A study of Homo sapiens with 12 samples.

Results

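Cells that make more secretory or membrane protein than the endoplasmic reticulum (ER) can fold switch on the unfolded protein response. Its sensors sit in the ER membrane and raise transcription of ER chaperones and of ER-associated degradation (ERAD), the route by which misfolded proteins are recognised, moved back to the cytosol and destroyed by the proteasome. The kinase and nuclease IRE1α cuts the XBP1 mRNA so that it encodes an active transcription factor, the membrane-bound factor ATF6 is cleaved after transport to the Golgi, and the kinase PERK slows translation and favours synthesis of ATF4. The genes of this system described here were ATF6, ERN1 (which encodes IRE1α) and XBP1 as sensors and transducers, HSP90B1, HYOU1, SDF2L1 and PDIA4 as ER chaperones and their partners, and HERPUD1, SEL1L and EDEM1 as ERAD components. They were chosen by symbol, with earlier results of these data known, and the 10 rows are 10 of 62914 in the gene tables. All 10 passed the filter on low counts that left 16628 genes for testing.

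The libraries came from THP-1, an established human monocytic leukemia line. Of the 12 libraries, 3 were made from cells given 3'-3'-cGAMP at 1 μg/mL for 8 h, a cyclic dinucleotide that activates the adaptor STING and served as the positive control for innate antiviral signalling. Chlorquinaldol, a halogenated 8-hydroxyquinoline antimicrobial, was given for 8 h at 20 μM (3 libraries) or 50 μM (3 libraries). Its dose series also had 3 untreated (0 μM) libraries, for which the labels give no time. All 12 libraries share the cell line, and neither the vehicle nor the origin of the replicates (separate cultures or not) is given in the sources used here, so p-values measure the spread between these libraries, which may be technical.

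Total estimated counts ran between 17620929 and 19222607 per library. The 12 monocytic markers examined were all measured, with a summed level of 3127 to 3482 CPM (counts scaled to library size) in cGAMP-treated libraries, 3083 to 3183 in untreated libraries, 3005 to 3156 at 20 μM and 3366 to 3791 at 50 μM. These sums cover moves in both directions: 3 of the 12 rose and 1 fell with cGAMP, 4 rose and 6 fell at 20 μM, and 5 rose and 6 fell at 50 μM, each against untreated cells. Of all tested genes, 23.3% rose or fell with cGAMP, 55.1% at 20 μM and 66.9% at 50 μM. At 50 μM the granule protease genes CTSG and ELANE were 9.38-fold and 3.27-fold lower and LYZ 2.17-fold lower, while ITGAM was 3.08-fold and CSF1R 2.67-fold higher. MPO was 3.92-fold lower at 50 μM, but at a low level (0.652 CPM, against 2.57 CPM in untreated cells). Of the marker lists for 5 other cell types, the sum for B cells was 51.8 to 72.1 CPM with cGAMP (mostly PAX5), 7.43 to 8.28 CPM in untreated libraries, 12.65 to 15.3 CPM at 20 μM and 9.96 to 10.7 CPM at 50 μM, with MS4A1 at 0. The sum for T and NK cells was 34.1 to 38.9 CPM at 50 μM, against 20.8 to 21.1 CPM in untreated libraries, mostly from NCAM1 (1.73-fold, adjusted p = 2.41e-06). That for erythroid and megakaryocyte cells was 1.75 to 2.14 CPM at 50 μM, against 0.828 to 1.28 CPM in untreated libraries, with PPBP called higher (adjusted p = 0.000503). The sums for epithelium and fibroblasts were at most 0.980 and 4.10 CPM in any library. The part of these markers in the results was not tested. Levels below are CPM after TMM scaling, and an SD is over the 3 libraries of a group. A log2 change is the edgeR quasi-likelihood estimate with its SE, and a gene was called when its Benjamini-Hochberg adjusted p over all tested genes was below 0.05.

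Promoters of these genes can carry short elements through which ATF6 and XBP1 act: the ER stress response element (ERSE, CCAAT, 9 bases, CCACG), ERSE-II (ATTGG, 1 base, CCACG) and the core of the UPR element (TGACGTGG). The 250 bases before the RefSeq start on GRCh38.p14 were searched on both strands for exact matches. Near matches were not searched for. An ERSE-II was present in HERPUD1, SDF2L1 and HYOU1, and an ERSE in XBP1 and HSP90B1. None of the 3 elements was in the windows of ATF6, ERN1, SEL1L, EDEM1 or PDIA4, or in that of the second RefSeq entry of XBP1. The 5 windows with an element are shown because HERPUD1 and SDF2L1, which share an ERSE-II, gave the most opposed results. Each is written 5′ to 3′ on the gene's strand and ends at the base before the start, with the matched element in capitals (for an ERSE only the CCAAT and CCACG ends, and as their reverse complements where the match is on the other strand).
HERPUD1: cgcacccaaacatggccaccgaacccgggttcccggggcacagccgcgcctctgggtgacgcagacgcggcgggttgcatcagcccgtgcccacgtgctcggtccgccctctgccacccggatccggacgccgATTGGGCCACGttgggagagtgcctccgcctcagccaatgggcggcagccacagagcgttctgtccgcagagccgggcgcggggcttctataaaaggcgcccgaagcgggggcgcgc
SDF2L1: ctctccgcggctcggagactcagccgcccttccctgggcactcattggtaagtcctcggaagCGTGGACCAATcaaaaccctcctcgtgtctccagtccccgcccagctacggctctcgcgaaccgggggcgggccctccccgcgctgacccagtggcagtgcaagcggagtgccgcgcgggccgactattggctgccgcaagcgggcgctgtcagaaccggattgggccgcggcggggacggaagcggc
HYOU1: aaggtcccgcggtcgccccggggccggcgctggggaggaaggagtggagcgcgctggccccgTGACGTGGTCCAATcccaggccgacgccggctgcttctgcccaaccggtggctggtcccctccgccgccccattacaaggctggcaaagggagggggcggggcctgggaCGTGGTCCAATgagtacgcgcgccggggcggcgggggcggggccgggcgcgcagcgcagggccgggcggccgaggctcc
XBP1: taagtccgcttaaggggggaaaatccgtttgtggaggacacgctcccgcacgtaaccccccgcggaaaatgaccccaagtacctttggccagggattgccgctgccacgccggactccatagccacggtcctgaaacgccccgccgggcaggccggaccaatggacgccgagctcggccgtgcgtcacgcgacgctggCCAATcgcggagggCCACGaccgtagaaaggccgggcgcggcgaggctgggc
HSP90B1: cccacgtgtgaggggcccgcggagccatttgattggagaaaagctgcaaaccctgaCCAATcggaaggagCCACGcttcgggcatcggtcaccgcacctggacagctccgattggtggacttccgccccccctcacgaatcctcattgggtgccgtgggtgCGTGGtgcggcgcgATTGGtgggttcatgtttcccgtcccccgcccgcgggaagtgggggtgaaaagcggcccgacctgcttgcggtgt

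These windows are chr16:56931892-56932141 on the plus strand for HERPUD1, chr22:21642052-21642301 on the plus strand for SDF2L1, chr11:119057206-119057455 on the minus strand for HYOU1, chr22:28800570-28800819 on the minus strand for XBP1 (the first of its RefSeq entries) and chr12:103930160-103930409 on the plus strand for HSP90B1. GENCODE gene bounds reach further upstream than the RefSeq start in HERPUD1, SDF2L1, XBP1 and HSP90B1. The ERSE-II lay 117 to 107 bases before the start in HERPUD1 on the plus orientation, and 188 to 178 bases before it in SDF2L1 in the reverse orientation. HYOU1 had a pair of reverse ERSE-II matches, at 185 to 175 and 79 to 69 bases before the start, and a UPR element core at 188 to 181 that overlaps the first of them. HSP90B1 had an ERSE at 194 to 176 and a reverse one at 89 to 71 bases before the start, and XBP1 had one at 52 to 34. Among 35114 RefSeq promoters of the same length an ERSE was in 0.0740%, an ERSE-II in 0.0513% a UPR element core in 0.612% and CCACG alone in 33.5%. A match describes letters and shows no binding.

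HERPUD1 encodes an ER membrane protein that helps assemble the ubiquitin ligase complex of ERAD. It lies on chromosome 16 (GRCh38, 56932048 to 56944863, plus strand). HERPUD1 had 52.4, 51.0 and 53.6 CPM in cGAMP-treated libraries. Over the chlorquinaldol doses it had 53.2, 55.7 and 55.7 CPM in untreated libraries, 75.1, 67.6 and 67.0 CPM at 20 μM and 84.8, 89.3 and 89.0 CPM at 50 μM. No library of a higher dose overlapped with one of a lower dose. The log2 change was 0.35 ± 0.07 at 20 μM (1.27-fold, adjusted p = 0.000441) and 0.68 ± 0.07 at 50 μM (1.60-fold, adjusted p = 1.74e-07), each against untreated cells. From 20 to 50 μM it rose by a further log2 of 0.33 ± 0.07 (adjusted p = 0.00131), a call lost with limma on the deposited FPKM values (adjusted p between 2.45e-05 and 0.0863 over all alternatives). With cGAMP the log2 change was -0.07 ± 0.07 (adjusted p = 0.538).

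SDF2L1, an ER-resident partner of the chaperone BiP, moved the other way. Its gene lies on chromosome 22 (21642261 to 21644298, plus strand), and it was the least abundant of the 10 by count, with 98 to 417 estimated counts per library. SDF2L1 had 21.0, 22.3 and 21.1 CPM in cGAMP-treated libraries. By chlorquinaldol dose it had 16.3, 18.2 and 17.0 CPM in untreated libraries, 8.42, 10.9 and 9.30 CPM at 20 μM and 5.92, 5.37 and 5.86 CPM at 50 μM. The groups did not overlap, and all 6 pairs of groups differed in the test. SDF2L1 fell by 0.85 ± 0.10 on the log2 scale at 20 μM (1.81-fold lower, adjusted p = 2.79e-06) and by 1.59 ± 0.11 at 50 μM (3.01-fold lower, adjusted p = 1.30e-09), the largest change of the 10 genes against untreated cells. In bulk RNA, fewer expressing cells and less RNA per cell cannot be told apart. Of all tested genes, 21.2% changed by more in size at 20 μM and 13.6% at 50 μM. From 20 to 50 μM SDF2L1 fell by a further 0.74 ± 0.12 (1.66-fold lower, adjusted p = 0.000101). With cGAMP it was 1.25-fold higher (log2 0.32 ± 0.10, adjusted p = 0.0257), and this call did not hold on FPKM, without untreated replicate 1 or 3, or without any 1 of the cGAMP libraries (adjusted p between 0.00201 and 0.103 over all alternatives).

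**Figure D1:**
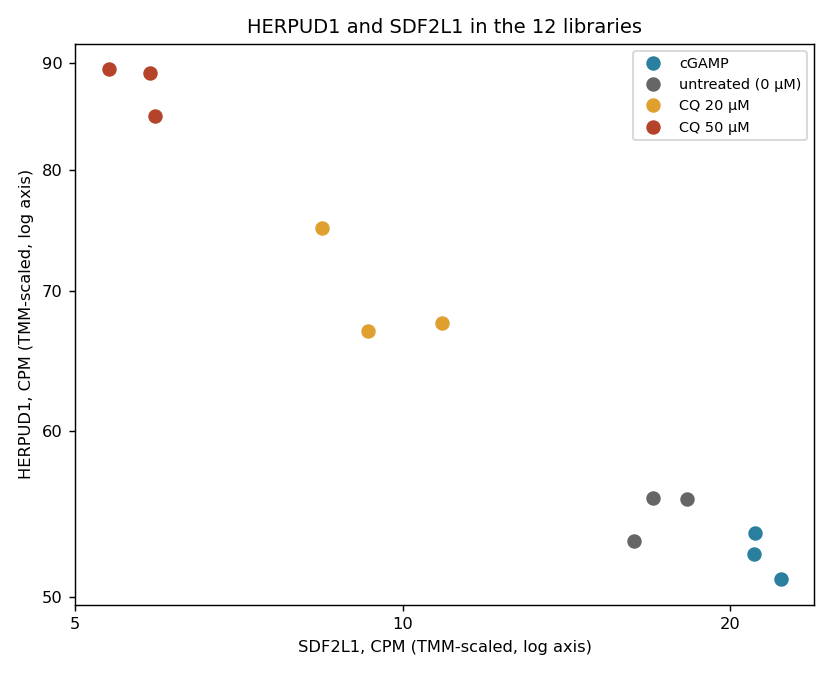
HERPUD1 (vertical) against SDF2L1 (horizontal), both in TMM-scaled CPM on log axes, with 1 point per library coloured by group. The 3 libraries at 50 μM lie at the top left (HERPUD1 84.8 to 89.3, SDF2L1 5.37 to 5.92), those at 20 μM between, and the untreated and cGAMP libraries at the bottom right, the cGAMP ones furthest right.

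The pair was set side by side after the values were seen. The points fall into the study's groups, so no correlation between HERPUD1 and SDF2L1 over libraries is given.

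SEL1L is the adaptor that holds the ERAD ubiquitin ligase HRD1 together (chromosome 14, 81471549 to 81533861, minus strand). SEL1L averaged 87.6 ± 11.5 CPM in cGAMP-treated cells. Across the dose series it averaged 96.2 ± 6.78 CPM in untreated cells, 121 ± 9.18 CPM at 20 μM and 124 ± 14.8 CPM at 50 μM (SD, n = 3 each). The lowest library at either dose, at 115 CPM, was above the highest untreated library. SEL1L rose by a log2 of 0.33 ± 0.10 at 20 μM (adjusted p = 0.0123) and 0.37 ± 0.10 at 50 μM (adjusted p = 0.00413), with no difference detected between the doses (0.04, adjusted p = 0.769). Neither call was kept on the FPKM scale, where the adjusted p reached 0.540 at 20 μM and 0.504 at 50 μM, nor was the call at 20 μM without untreated replicate 3 (0.0570). Over all alternatives the smallest values were 0.000342 and 1.58e-05.

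EDEM1 is a lectin-like protein that takes misfolded glycoproteins out of the folding cycle for degradation (chromosome 3, 5187646 to 5219957, plus strand). EDEM1 had 846, 804 and 871 CPM in cGAMP-treated libraries. Over the chlorquinaldol doses it had 642, 591 and 648 CPM in untreated libraries, 558, 562 and 714 CPM at 20 μM and 469, 449 and 458 CPM at 50 μM. The third library at 20 μM was above every untreated library, whereas all libraries at 50 μM were below every other library. EDEM1 was 1.34-fold higher with cGAMP (log2 0.42 ± 0.09, adjusted p = 0.00304) and 1.37-fold lower at 50 μM (log2 -0.45 ± 0.09, adjusted p = 0.000346), and at 20 μM the log2 change was -0.04 ± 0.09 (adjusted p = 0.758). At 50 μM it was 1.83-fold lower than with cGAMP (adjusted p = 2.39e-07). The cGAMP call was lost when all FPKM genes were tested (adjusted p between 1.83e-05 and 0.0818 over all alternatives).

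Among the chaperones, HYOU1, an ER member of the HSP70 superfamily that serves as a nucleotide exchange factor for BiP, fell at both doses (chromosome 11, 119044189 to 119057202, minus strand). HYOU1 had 168, 188 and 180 CPM in cGAMP-treated libraries. By chlorquinaldol dose it had 212, 219 and 191 CPM in untreated libraries, 131, 123.5 and 128 CPM at 20 μM and 124, 126 and 150 CPM at 50 μM. All 6 chlorquinaldol libraries were below all 6 others. HYOU1 fell by 0.70 ± 0.09 on the log2 scale at 20 μM (1.62-fold lower, adjusted p = 2.64e-06) and by 0.64 ± 0.09 at 50 μM (1.56-fold lower, adjusted p = 3.72e-06). The step between the doses was 0.06 (adjusted p = 0.618). With cGAMP the log2 change was -0.22 ± 0.09 (adjusted p = 0.0773) with libraries that did not overlap with the untreated ones, and it was called with upper-quartile factors (0.0351, over all alternatives 0.0351 to 0.339).

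HSP90B1 encodes GRP94, the HSP90 chaperone of the ER (chromosome 12, 103930107 to 103953645, plus strand). It was the most abundant of the 10 per transcript length, with 281 ± 1.97 FPKM in untreated cells (SD, n = 3). HSP90B1 averaged 796 ± 77.8 CPM in cGAMP-treated cells. Across the dose series it averaged 696 ± 15.8 CPM in untreated cells, 846 ± 42.2 CPM at 20 μM and 765 ± 90.9 CPM at 50 μM. The 3 libraries at 20 μM, at 804, 888 and 846 CPM, lay above the untreated range of 678 to 707 CPM, and those at 50 μM overlapped with it. It was 1.21-fold higher at 20 μM (log2 0.28 ± 0.09, adjusted p = 0.0175), which was lost without untreated replicate 1 and when all FPKM genes were tested (adjusted p between 0.00260 and 0.09997 over all alternatives). The changes with cGAMP (log2 0.19 ± 0.09, adjusted p = 0.153) and at 50 μM (log2 0.14 ± 0.09, adjusted p = 0.210) were not called. The change with cGAMP became a call without the third library at 50 μM (adjusted p = 0.0438) and with only the groups compared. Over all alternatives its adjusted p was 0.0245 to 0.588. That at 50 μM became a call without the second library there (0.0330, over all alternatives 0.0330 to 1).

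PDIA4, a protein disulfide isomerase, was called in none of the comparisons with untreated cells (chromosome 7, 149003062 to 149028641, minus strand). PDIA4 averaged 115 ± 7.49 CPM in cGAMP-treated cells. Over the chlorquinaldol doses it averaged 101 ± 7.14 CPM in untreated cells, 115 ± 2.52 CPM at 20 μM and 90.5 ± 8.25 CPM at 50 μM. The adjusted p was 0.104 with cGAMP, 0.0579 at 20 μM and 0.1003 at 50 μM. The value at 20 μM became a call under 13 of 22 alternatives (adjusted p between 0.0144 and 0.207), among them leaving out untreated replicate 2, cGAMP replicate 2, any 1 library at 50 μM or replicate 1 or 3 at 20 μM. That with cGAMP became one under 6 (0.0184 to 0.383), among them leaving out any 1 library at 20 μM or replicate 1 or 3 at 50 μM, and that at 50 μM under 4 (0.00248 to 0.711), the FPKM scales and upper-quartile factors. Between the doses PDIA4 fell by 0.35 ± 0.08 on the log2 scale at 50 μM (1.27-fold lower than at 20 μM, adjusted p = 0.00286).

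Of the sensors and transducers, ATF6 was lower at both doses (chromosome 1, 161766294 to 161964070, plus strand). ATF6 averaged 86.8 ± 2.89 CPM in cGAMP-treated cells. By chlorquinaldol dose it averaged 86.2 ± 5.29 CPM in untreated cells, 66.1 ± 7.44 CPM at 20 μM and 64.8 ± 7.23 CPM at 50 μM. The highest chlorquinaldol library, at 71.1 CPM, was below the lowest untreated library, at 80.3 CPM. ATF6 fell by 0.38 ± 0.09 on the log2 scale at 20 μM (adjusted p = 0.00232) and by 0.41 ± 0.09 at 50 μM (1.33-fold lower, adjusted p = 0.000944), and the value at 50 μM minus that at 20 μM was -0.03 (adjusted p = 0.838). With cGAMP the log2 change was 0.01 ± 0.09 (adjusted p = 0.958).

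XBP1 lies on chromosome 22 (28794555 to 28800597, minus strand). XBP1 had 130, 143 and 142 CPM in cGAMP-treated libraries. Across the dose series it had 90.1, 96.6 and 89.4 CPM in untreated libraries, 98.5, 83.5 and 80.5 CPM at 20 μM and 122, 140 and 157 CPM at 50 μM. Libraries at 20 μM overlapped with the untreated ones, while those with cGAMP and at 50 μM stood above both. XBP1 was 1.51-fold higher with cGAMP (log2 0.59 ± 0.10, adjusted p = 0.000228) and 1.52-fold higher at 50 μM (log2 0.60 ± 0.10, adjusted p = 2.59e-05), against a log2 change of -0.07 ± 0.10 at 20 μM (adjusted p = 0.547). The step of 0.68 ± 0.10 between the doses was itself called (1.60-fold, adjusted p = 3.30e-05). The level at 50 μM and that with cGAMP differed by a log2 of 0.01 ± 0.10 (adjusted p = 0.910). Gene-level values sum over transcripts, so the spliced and unspliced forms of XBP1 mRNA cannot be told apart.

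ERN1 was the lowest of the 10 per transcript length, at 4.04 ± 0.183 FPKM in untreated cells (chromosome 17, 64039142 to 64130819, minus strand). ERN1 averaged 29.98 ± 4.04 CPM in cGAMP-treated cells. Over the chlorquinaldol doses it averaged 27.5 ± 1.84 CPM in untreated cells, 22.3 ± 2.03 CPM at 20 μM and 29.2 ± 4.996 CPM at 50 μM. The 50 μM libraries, at 23.5, 31.3 and 32.8 CPM, spread more widely than the others. The log2 change at 20 μM was -0.30 ± 0.12 (adjusted p = 0.0484), and it stayed called under 5 of 22 alternatives (adjusted p between 0.0198 and 0.267). Of the libraries left out in turn, only untreated replicate 2, cGAMP replicate 3 and the first at 50 μM could be dropped with the call kept. Between the doses ERN1 was 1.31-fold higher at 50 μM (log2 0.39 ± 0.12, adjusted p = 0.0190), called under 16 of 22 alternatives (adjusted p between 0.00107 and 0.469) and lost on FPKM, without replicate 2 or 3 at 50 μM or replicate 2 at 20 μM. With cGAMP (adjusted p = 0.500) and at 50 μM (adjusted p = 0.527) ERN1 did not pass the test against untreated cells, though at 50 μM it did without the first library there (0.0281, with 0.0281 to 0.848 over all alternatives).

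**Figure D2:**
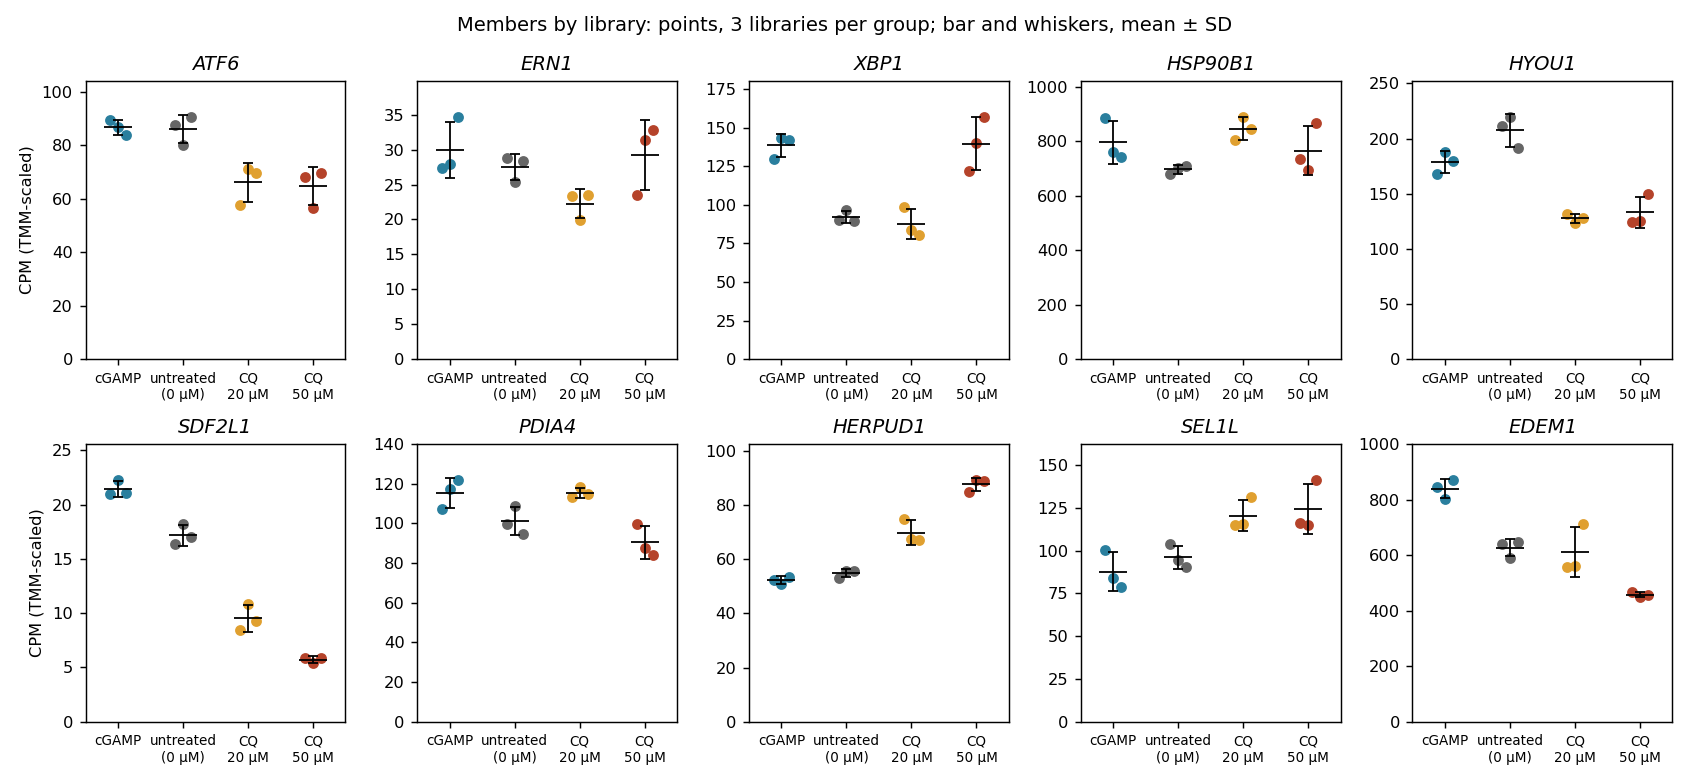
TMM-scaled CPM of each of the 10 genes in the 12 libraries, 1 panel per gene with its own axis from 0. Points are libraries and the bar with whiskers is the mean ± SD of 3 libraries; HERPUD1 climbs and SDF2L1 falls with each dose of chlorquinaldol (CQ), and XBP1 is high with cGAMP and at 50 μM.

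Counted together, 3 of the 10 genes rose and 0 fell with cGAMP, where 11.6% of all tested genes rose and 11.8% fell (23.3% in either direction). Without the third library at 50 μM, or with only the groups compared, 5 passed with cGAMP. The 23.3% belongs to the main fit. The share of all genes called under these other settings is not given, so 5 of 10 has no matching background. At 20 μM 3 rose and 4 fell, where 27.1% of tested genes rose and 28.0% fell (55.1% in either direction). At 50 μM 3 rose and 4 fell, where 32.2% rose and 34.7% fell (66.9% in either direction). A count of 7 of 10 is near the share called among all genes at either dose, so the count is no result about these genes. Libraries did not overlap with the untreated ones for 5 of 10 genes with cGAMP, 8 at 20 μM and 7 at 50 μM, where the background is 44.0%, 61.9% and 70.6% of tested genes. The median log2 change of the 10 was 0.16 with cGAMP, -0.05 at 20 μM and -0.03 at 50 μM, beside -0.05, -0.00156 and -0.03 over all tested genes. By size of change at 50 μM, 13.6% of tested genes moved more than SDF2L1, 43.8% more than HERPUD1, 46.1% more than HYOU1 and 48.6% more than XBP1. The share was 59.1% for EDEM1, 62.2% for ATF6, 65.7% for SEL1L, 84.5% for PDIA4, 86.6% for HSP90B1 and 90.9% for ERN1. The 3 comparisons share the untreated libraries.

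Between the doses, 3 of the 10 genes were higher at 50 μM than at 20 μM (HERPUD1, XBP1 and ERN1) and 3 were lower (SDF2L1, EDEM1 and PDIA4), where 19.1% of tested genes were higher and 19.0% lower (38.1% in either direction). ATF6, SEL1L, HYOU1 and HSP90B1 were not called for this step. Against cGAMP, 2 of the 10 (HERPUD1 and SEL1L) were higher at 20 μM and 6 lower, where 27.6% of tested genes were higher and 28.0% lower (55.6% in either direction). At 50 μM the same 2 genes were higher than with cGAMP and 5 were lower, where 32.0% were higher and 34.7% lower (66.7% in either direction). Libraries did not overlap for 6 of the 10 genes between the doses, 8 between 20 μM and cGAMP and 7 between 50 μM and cGAMP, where the background is 45.0%, 61.7% and 69.4% of tested genes. SDF2L1 had the widest span of group means, 3.75-fold between cGAMP and 50 μM (adjusted p = 1.12e-10), and HSP90B1 the narrowest, with 1 pair of groups called of 6.

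**Figure D3:**
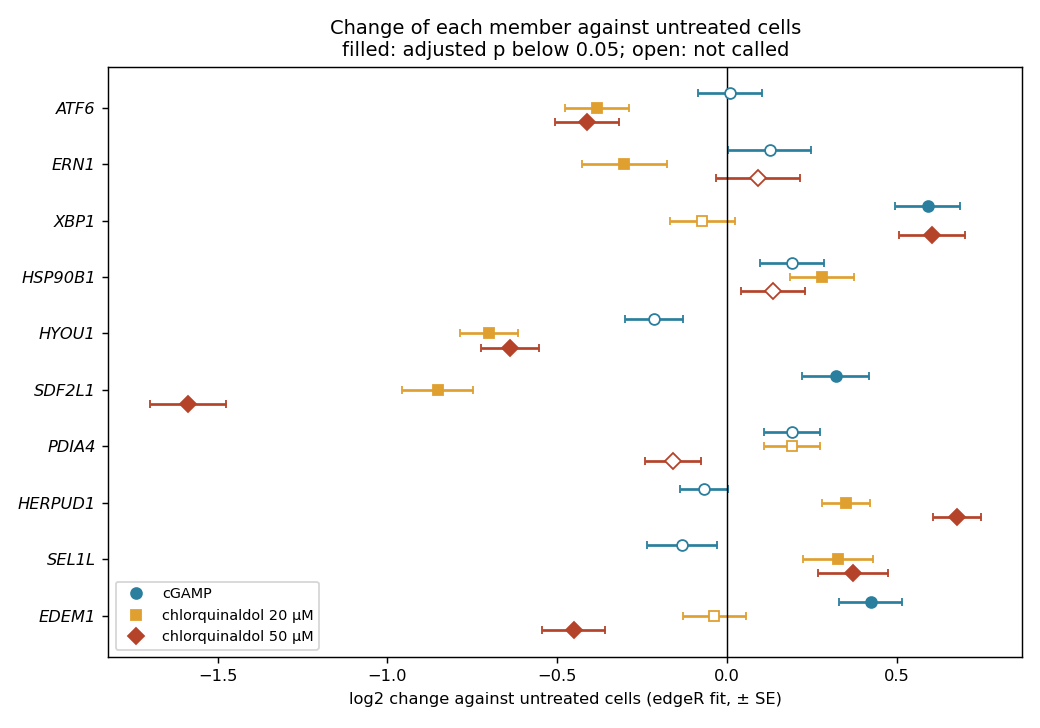
log2 change of each gene against untreated cells with its SE, for cGAMP (circles), 20 μM chlorquinaldol (squares) and 50 μM chlorquinaldol (diamonds), filled where the adjusted p was below 0.05. SDF2L1 at 50 μM (-1.59) and HERPUD1 at 50 μM (0.68) are the ends of the range.

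The genes whose log2 CPM ran closest to SDF2L1 over the 12 libraries, out of 10767 compared, were RNASEH2B (Pearson r = 0.994), UQCC2 (0.994) and PLAC8 (0.993). For HERPUD1 they were PPARG, PPP2R5B and ABCC3, each at 0.993. For HYOU1 they were RELL2 (0.982), DNAJA3 (0.971) and SLC5A6 (0.971). These values describe likeness only, since all genes share the same libraries and groups.

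The rest of the system was read from 126 further genes in 6 lists, all of which were tested. Their counts stand beside the background given above, where 11.6% of tested genes rose and 11.8% fell with cGAMP, 27.1% rose and 28.0% fell at 20 μM, and 32.2% rose and 34.7% fell at 50 μM. Among 18 UPR sensors and regulators, 2 rose and 0 fell with cGAMP, 5 rose and 7 fell at 20 μM, and 7 rose and 7 fell at 50 μM (median log2 change 0.04). DDIT3, the transcription factor CHOP that is induced by ATF4, had 191.6, 191.2 and 201.6 CPM at 50 μM, against 45.9, 51.3 and 63.9 CPM in untreated libraries. It rose with cGAMP by a log2 of 0.50 ± 0.14 (adjusted p = 0.0140), at 20 μM by 1.06 ± 0.14 (adjusted p = 5.78e-06) and at 50 μM by 1.86 ± 0.14 (adjusted p = 3.17e-09). ATF4 itself was called at 50 μM, with 582 ± 23.2 CPM against 365 ± 10.5 CPM in untreated cells (log2 0.67, adjusted p = 6.94e-07), and not at 20 μM (adjusted p = 0.0512) or with cGAMP (adjusted p = 0.244). PPP1R15A, whose product GADD34 directs dephosphorylation of eIF2α, averaged 514 ± 90.0 CPM at 50 μM and 169 ± 25.5 CPM in untreated cells (log2 1.60 ± 0.15), and the membrane-bound factor CREB3 rose by 1.57. MBTPS1, the Golgi protease that cleaves ATF6, fell by 0.66 on the log2 scale at 20 μM and by 0.53 at 50 μM. RTCB, the ligase that joins the XBP1 mRNA after IRE1α cuts it, averaged 176 ± 9.60 CPM with cGAMP and 80.1 ± 1.25 CPM in untreated cells (log2 1.14 ± 0.08, adjusted p = 2.89e-09). At 50 μM RTCB fell by 0.43 on the log2 scale. EIF2AK3 and TRIB3 were picked after their values were seen: EIF2AK3, which encodes PERK, rose by 0.43 at 20 μM and by 0.84 at 50 μM, and TRIB3, a pseudokinase target of CHOP, rose by 2.30 at 50 μM.

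Of 25 ER chaperones and foldases, 2 rose and 1 fell with cGAMP, 10 rose and 4 fell at 20 μM, and 12 rose and 5 fell at 50 μM (median log2 change 0.18). HSPA5, which encodes BiP, averaged 745 ± 42.0 CPM at 50 μM and 515 ± 18.1 CPM in untreated cells (log2 0.53, adjusted p = 9.54e-06), while SDF2L1 and HYOU1, which act with BiP, fell. Its log2 change was 0.22 at 20 μM (adjusted p = 0.0233). DNAJB9, a BiP co-chaperone, rose by 0.72 at 50 μM (adjusted p = 0.000311) and was not called at 20 μM (0.23, adjusted p = 0.199). ERO1A, the oxidase that renews protein disulfide isomerases, had the widest rise of the list. ERO1A averaged 120 ± 10.5 CPM in untreated cells, 385 ± 29.6 CPM at 20 μM and 582 ± 54.4 CPM at 50 μM (log2 2.28 ± 0.10 at 50 μM, adjusted p = 2.84e-12). TXNDC5, a thioredoxin-domain foldase, averaged 13.3 ± 1.51 CPM at 50 μM and 43.4 ± 1.33 CPM in untreated cells (log2 -1.70 ± 0.10), and ERP29 fell by 1.02.

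Of 33 further ERAD genes, 4 rose and 6 fell with cGAMP, 7 rose and 10 fell at 20 μM, and 13 rose and 10 fell at 50 μM (median log2 change 0.01). ERLIN1, an ER membrane scaffold that takes part in degradation of inositol trisphosphate receptors, had 17.57, 16.4 and 16.4 CPM at 50 μM, against 197, 177 and 190 CPM in untreated libraries. This was a log2 change of -3.48 ± 0.12 (adjusted p = 4.77e-13), beside -2.28 ± 0.11 at 20 μM. Its partner ERLIN2 fell by 1.60 at 50 μM. FBXO6, a glycoprotein-binding ubiquitin ligase subunit, had 47.9, 55.3 and 60.9 CPM with cGAMP, against 12.7, 14.2 and 14.0 CPM in untreated libraries (log2 2.00 ± 0.11, adjusted p = 3.02e-10), and was not called at 20 μM (-0.07) or 50 μM (-0.02). HERPUD2, the paralog of HERPUD1, rose with cGAMP (0.45) and was not called at 20 μM (0.12) or at 50 μM (0.06). EDEM2 and EDEM3, the paralogs of EDEM1, were looked at after the values were seen: at 50 μM EDEM2 fell by 0.81 and EDEM3 by 1.13 on the log2 scale. SYVN1, which encodes the ligase HRD1 that SEL1L holds, was also picked afterwards, and fell with cGAMP (log2 -0.51, adjusted p = 0.00311), whereas at 50 μM its log2 change was -0.03 (adjusted p = 0.798). OS9, the lectin that hands glycoproteins to SEL1L and HRD1 and likewise picked afterwards, rose by 0.58 at 20 μM and by 0.71 at 50 μM.

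Of 18 genes of N-glycan processing, 1 rose and 2 fell with cGAMP, 6 rose and 4 fell at 20 μM, and 8 rose and 4 fell at 50 μM (median 0.05). MAN1A1, a Golgi mannosidase, averaged 86.5 ± 4.55 CPM at 50 μM and 20.4 ± 1.44 CPM in untreated cells (log2 2.08 ± 0.09), while DDOST, a subunit of the oligosaccharyltransferase, fell by 1.00 and UGGT1, the folding sensor of the lectin cycle, by 0.81. Of 24 genes of ER translocation, 5 rose and 0 fell with cGAMP, 4 rose and 10 fell at 20 μM, and 5 rose and 12 fell at 50 μM (median -0.25, beside -0.03 over all tested genes). SRPRB, a subunit of the signal recognition particle receptor, fell by 1.28 at 50 μM and SPCS1, a signal peptidase subunit, by 1.02, whereas TRAM1 rose by 0.85. Of 8 ER-phagy receptors, 2 rose and 3 fell with cGAMP, 5 rose and 2 fell at 20 μM, and 5 rose and 3 fell at 50 μM (median 0.26). CCPG1 rose by 0.99 and CALCOCO1 by 0.97 at 50 μM, and RETREG1 fell by 0.93.

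**Figure D4:**
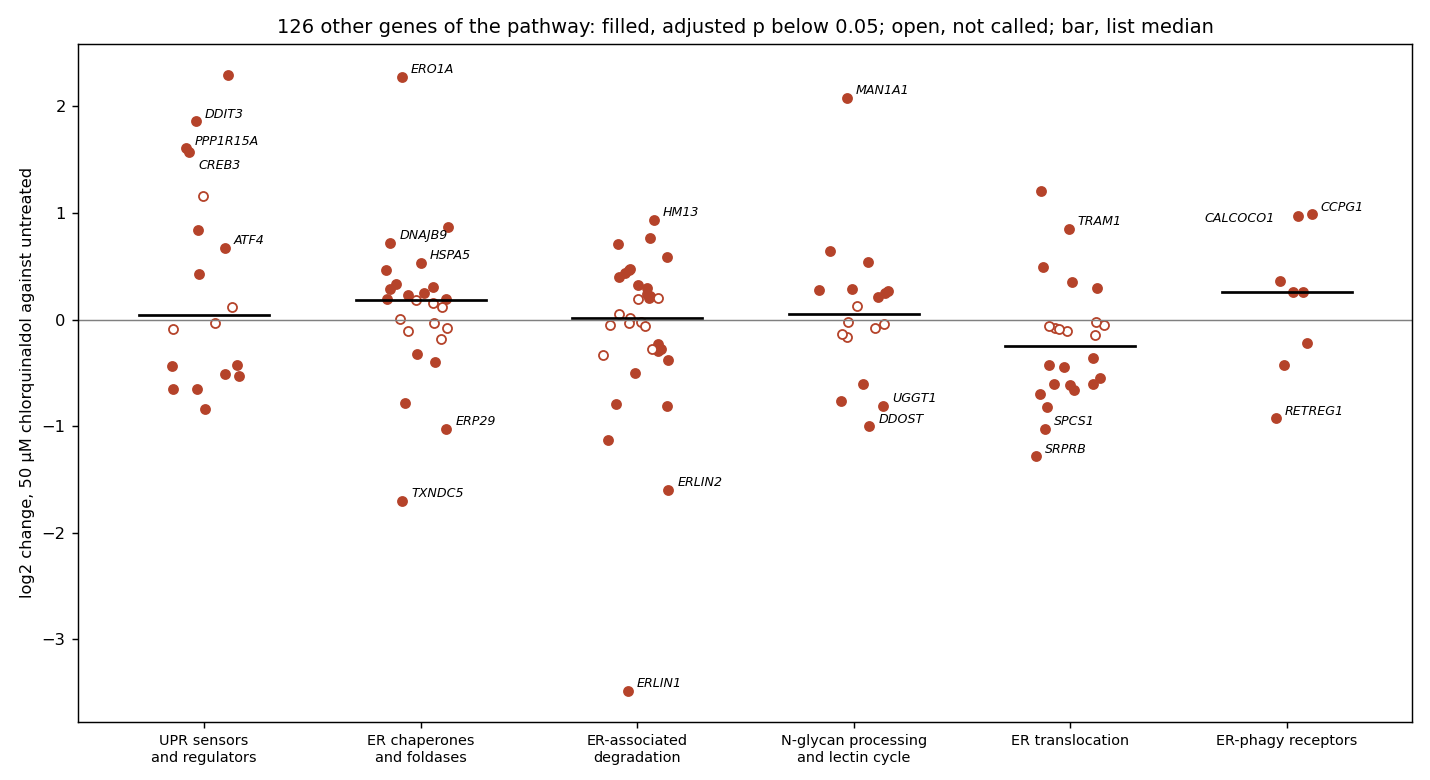
log2 change at 50 μM chlorquinaldol against untreated cells for the 126 further genes in 6 lists, 1 point per gene, filled where the adjusted p was below 0.05, with a bar at each list's median. Points lie on both sides of 0 in every list, from ERLIN1 (-3.48) to TRIB3 (2.30, unlabelled), and the median of ER translocation (-0.25) is the lowest.

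Per transcript length, untreated cells held on average 281 FPKM of HSP90B1, 120 of EDEM1, 59.4 of XBP1, 55.6 of HYOU1, 41.7 each of HERPUD1 and PDIA4, 30.3 of SDF2L1, 27.2 of ATF6, 15.6 of SEL1L and 4.04 of ERN1. At 50 μM, SDF2L1 averaged 9.10 ± 0.465 FPKM, against 30.3 ± 1.49 FPKM in untreated cells, and HERPUD1 60.9 ± 5.38 FPKM, against 41.7 ± 1.37 FPKM in untreated cells (SD, n = 3 each). Genes on the opposite strand overlap EDEM1, HYOU1 and HSP90B1, and strand is not given, but those genes had at most 158 estimated counts in any library (C12orf73, which overlaps HSP90B1). The pseudogenes HSP90B2P, HSP90B3P and XBP1P1 had at most 6, 1 and 3 estimated counts.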

How the data were processed

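Tables with 1 row per gene held 12 RNA-seq libraries of THP-1 cells, prepared with oligo(dT) beads and sequenced on the DNBSEQ platform of BGI, per the labels. The authors deposited RSEM estimated counts and FPKM values on GRCh38, per the submitters' processing notes, which also name DESeq2 1.26.0; RSEM's version, the annotation release and the read strand are not given in the sources used here. Of the deposited estimated counts above 0, 42.1% were not whole, and all were rounded. Unannotated transcripts (326 of 62914 rows) were left out of library sizes and tests. After filterByExpr with a minimum count of 10, TMM factors were used and edgeR 4.0.16 (R 4.3.3) fitted its quasi-likelihood model to all 4 groups at once, with Benjamini-Hochberg adjustment over 16628 genes. TMM centres on most genes, so total RNA per cell is not measured. The code was tested on simulated counts. An exact test of 3 libraries against 3 cannot go below p = 0.1. The quasi-likelihood model borrows its spread across genes. Within each group, no 2 libraries agreed within sampling noise. The chi-square per gene between 2 libraries was 4.90 to 7.70 for untreated and 3.96 to 8.64 for cGAMP. It was 11.2 to 21.0 at 20 μM and 11.0 to 23.7 at 50 μM, so libraries differed more within the chlorquinaldol groups. The model used 1 spread per gene for all 4 groups.

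The 10 genes and the 6 lists were chosen with earlier results of these data known. By rule, genes named besides the 10 were, per list and comparison with untreated cells, up to 3 with the smallest p among those called and without overlapping libraries, plus DDIT3, ATF4, HSPA5, DNAJB9 and ERO1A, and for SDF2L1, HYOU1 and HERPUD1 the 3 genes most alike by Pearson r over 12 libraries (log2 CPM, prior count 2, mean of at least 5 CPM). EIF2AK3, TRIB3, EDEM2, EDEM3, SYVN1, OS9 and the cell type markers named singly fall outside that rule and were picked after their values were seen. For the chaperone, N-glycan, translocation and ER-phagy lists, only counts are given with cGAMP, and no single gene's value. Positions are from GENCODE on GRCh38 and promoters from RefSeq on GRCh38.p14. The 22 alternatives were DESeq2 1.42.0, RLE or upper-quartile factors, a replicate block, other filters, a fit of only the groups compared, limma 3.58.1 on log2(FPKM + 1) and log2(FPKM + 0.1), and each library left out.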

Additional observations from a re-analysis of the deposited data

How the results depend on the processing

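Over 22 alternatives, 1180 of 1320 values of the 10 genes kept direction and side of the threshold; 27 of 38 calls were kept under every alternative, and 50 values lost and 30 gained a call. In 13 gene results 60 values changed sign, none of them called before or after. With limma on log2(FPKM + 1), on log2(FPKM + 0.1) and on all FPKM genes, in that order, these were ATF6 with cGAMP (-0.081, -0.083, -0.081) and between the doses (0.0033, 0.0034, 0.0033), ERN1 at 50 μM (-0.11, -0.14, -0.11), HSP90B1 at 50 μM (-0.014 in all), HYOU1 (-0.044, -0.046, -0.044) and SEL1L (-0.0086, -0.0088, -0.0086) between the doses, XBP1 at 50 μM against cGAMP (-0.081, -0.082, -0.081) and PDIA4 at 20 μM against cGAMP (0.055, 0.056, 0.055). Upper-quartile factors turned ATF6 with cGAMP (-0.030), SEL1L between the doses (-0.0039) and PDIA4 at 20 μM against cGAMP (0.061). In these comparisons, in that order, the same factors shifted the log2 changes of all tested genes by a median of -0.040, -0.048 and 0.061. PDIA4 at 20 μM against cGAMP also turned with DESeq2 and RLE (0.0034), no filter (0.0031), at least 5 CPM (0.021) and only the groups compared (0.0043). EDEM1 at 20 μM turned with no filter (0.0062). Leaving out single libraries gave PDIA4 -0.052 to 0.038, ATF6 -0.038 to 0.064 with cGAMP and -0.10 to 0.082 between the doses, SEL1L -0.037 to 0.13 and HYOU1 -0.010 to 0.13 between the doses, EDEM1 -0.12 to 0.073 and XBP1 -0.12 to 0.031 at 20 μM, HERPUD1 -0.089 to 0.0057 with cGAMP, and, at 50 μM against cGAMP, XBP1 -0.063 to 0.13, HSP90B1 -0.14 to 0.023 and ERN1 -0.11 to 0.13.

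With cGAMP, 1 of the 10 genes was lower with upper-quartile factors, 5 were higher with only the groups compared, and 2 to 5 were higher with single libraries left out. On all FPKM genes 1 was higher with cGAMP, at 20 μM, at 20 or 50 μM against cGAMP and between the doses. The count between the doses was also 1 on both other FPKM scales. For upper-quartile factors and for only the groups compared, the share of all genes called is not given. For single libraries left out, all-gene counts are given mostly as a range. Those counts of the 10 genes therefore have no matching background. Over all genes, 1921 were higher and 1954 lower with cGAMP in the main fit, and 3168 were higher at 50 than 20 μM. On the 3 FPKM scales those higher with cGAMP were 1263, 1247 and 1085, and those higher at 50 than 20 μM 1839, 1750 and 1645. Those lower with cGAMP were 953 on all FPKM genes. With single libraries left out they were 858 to 1555, all below the main fit (858 without cGAMP replicate 2), and those higher with cGAMP were 1515 to 2414. The cause was not tested. Replicate numbers did not pair the libraries (correlations of deviations -0.113 to 0.0671); with the replicate block no value changed its call, 1842 genes rose and 1777 fell with cGAMP, and 5281 rose and 5697 fell at 50 μM. The least counted of the 10 genes were SDF2L1, with as few as 98 estimated counts in a library, and ERN1, with as few as 350.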
